A study of Ziziphus jujuba with 15 samples.

Results

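Leaves of jujube seedlings of the heat-sensitive cultivar 'HS' were compared after 7 d and after 1 d of heat stress. The comparison used all 32876 genes of the deposited expression table and 6 of the 15 libraries of the series, namely the 3 labelled 7 d (replicates a, b and c) and the 3 labelled 1 d. Every library held RNA from seedling leaves of the cultivar labelled HS-Haoqing1. The 1 d and 7 d groups had received the same heat treatment for different times, and the 0 d group, also of 3 libraries, had received none. Libraries of 3 d and 5 d, 3 of each, entered the fit. Some of their correlations and values are given as a description, but no test against them is reported here. The question was whether leaves late in the treatment resembled the acute response or differed from it.

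When leaves are heated, heat stress transcription factors (HSFs) switch on the genes of heat shock proteins (HSPs), chaperones that hold unfolded proteins in solution or refold them. Small HSPs bind unfolding proteins, HSP70 with its DnaJ partners and HSP90 fold them, and ClpB proteins pull aggregates apart. In Arabidopsis, transcripts of many HSP genes rise within the first hours of heat and decline later. Photosynthesis, carbon fixation and protein synthesis are among the leaf functions that heat disturbs.

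Expression was given as FPKM, a fragment count scaled for transcript length and library size. All tests used log2(FPKM + 1), on which changes of weakly expressed genes come out too small. DEGs were genes with a limma adjusted p of 0.01 or less (Benjamini-Hochberg, over all 19925 genes tested) that changed by 2-fold or more, and "up-regulated" means higher at 7 d than at 1 d. The files hold no read counts. Depths relative to the first library of 0 d were estimated from the spacing of low FPKM values. They came to 0.915, 1.29 and 1.31 for replicates a, b and c after 1 d, and to 0.978, 0.963 and 1.05 after 7 d, within a series range of 0.900 to 1.31. The number of genes reaching an FPKM of 1 ranged from 17371 to 18313 per library. The genes of antenna proteins, which mark photosynthetic leaf cells, summed to an FPKM of 25918 to 26377 at 1 d and 23334 to 29205 at 7 d, so these leaf markers were abundant in all 6 libraries. In bulk leaf tissue, fewer cells of a type and less RNA per cell cannot be told apart.

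Replicate a at 7 d stood apart from replicates b and c at 7 d, and the results below are given with and without it. Across the 19925 genes, Pearson's r between the libraries was 0.966 for replicates b and c at 7 d but 0.906 and 0.909 for replicate a with each of them. Replicate a was less like b and c at the other 4 time points too, where that r was 0.927 to 0.946. At 7 d, 1924 genes (9.66% of those tested) were 2-fold or more above or below both other libraries in replicate a, against 292 in replicate b and 322 in replicate c. For replicate a at 1 d that number was 937 (4.70%). Whether b and c share more of their source than either shares with a is not given in the sources used here, and what set replicate a at 7 d apart was not tested. Fits without replicate a at 7 d rest there on b and c alone, so their counts may treat closely related libraries as independent.

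By correlation, the 7 d libraries were nearer to the 1 d and 3 d libraries than to those of 0 d. The 9 pairings of 7 d with 1 d libraries gave Pearson's r of 0.915 to 0.926, the 9 pairings with 3 d libraries gave 0.913 to 0.925, and the 9 pairings with 0 d libraries gave 0.850 to 0.887. Libraries of 1 d and 0 d correlated at 0.872 to 0.892. The 7 d libraries differed among themselves in the direction of this likeness. Replicate a had r of 0.850 to 0.864 with the 0 d libraries and of 0.926 to 0.934 with those of 5 d. Replicates b and c had r of 0.882 to 0.887 with 0 d and of 0.890 to 0.912 with 5 d. All these values are across genes, which share libraries and are not independent replicates, and they are given as a description.

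**Figure D1:**
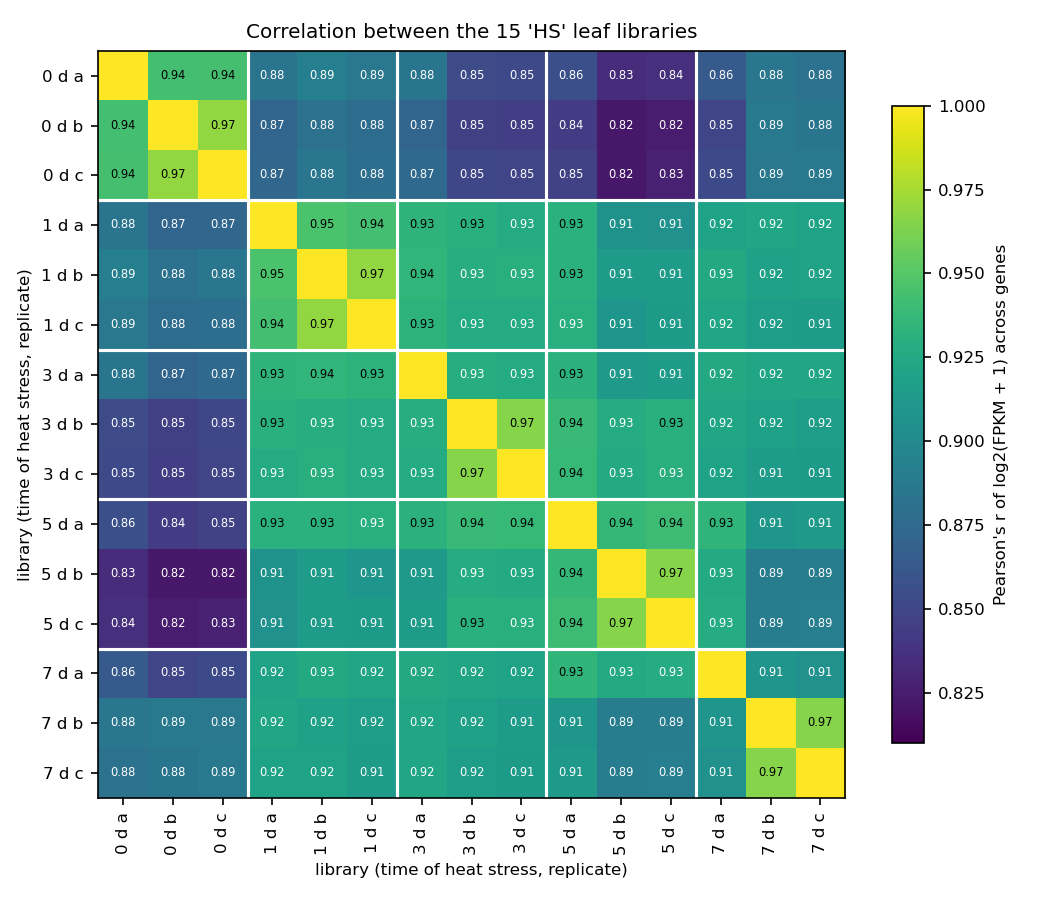
Pearson's r of log2(FPKM + 1) across the 19925 tested genes for every pair of the 15 libraries, ordered by days of heat stress and replicate letter, with the color giving r. Each 7 d library correlates at 0.915 to 0.926 with the 1 d libraries, and within 7 d replicate a correlates at only 0.906 and 0.909 with replicates c and b.

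Few genes separated 7 d from 1 d. Of the 19925 genes tested, 74 (0.371%) were DEGs, 44 up-regulated (0.221%) and 30 down-regulated (0.151%). Among those up-regulated, gene23328 and gene27580 passed the filter on FPKM only through the 3 libraries of 7 d, so their calls partly follow from that filter. In the same fit, 1 d against 0 d gave 2027 DEGs (10.2%), 895 higher (4.49%) and 1132 lower (5.68%), and 7 d against 0 d gave 1796 (9.01%), 824 higher (4.14%) and 972 lower (4.88%). The 3 comparisons share libraries pairwise, so their counts are set side by side only, and whether they differ was not tested. The test had limits of its own at 7 d, where the replicates were the least alike. At an unadjusted p of 0.05 or less, 3599 genes (18.1%) differed between 7 d and 1 d, 738 of them by 2-fold or more. Without replicate a at 7 d, the same test called 377 of 19850 genes (1.90%), 292 higher and 85 lower, and 66 of the 74 DEGs were among them with the same direction. In all 74 DEGs the 3 libraries of 7 d lay on 1 side of the 3 libraries of 1 d, which was so for 23.4% of all tested genes. The thresholds for a DEG favour this on the same values, so it is no separate support. The number of DEGs also fell to 18 or 20 without replicate b or c at 1 d, and to 26 or 20 without replicate b or c at 7 d.

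**Figure D2:**
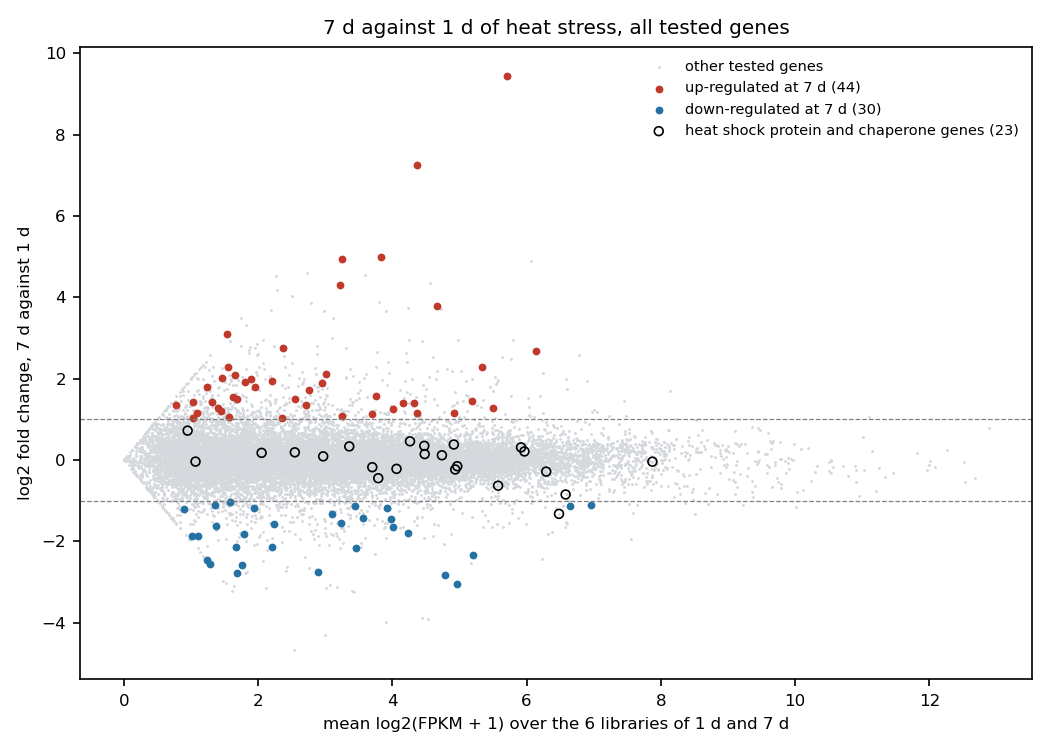
Log2 fold change of 7 d against 1 d on the log2(FPKM + 1) scale (vertical axis) against the mean log2(FPKM + 1) over the 6 libraries (horizontal axis) for the 19925 tested genes, with the 44 up-regulated DEGs in red, the 30 down-regulated DEGs in blue and 23 heat shock protein and chaperone genes ringed. The ringed genes lie around 0 and none of them is a DEG, and the dashed lines mark a 2-fold change. The ringed set leaves out gene12412, a DEG that fell and had been listed with the chaperones, and adds gene6564. Both choices were made after the values were seen, so the absence of DEGs among the ringed genes depends on them.

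Both of the genes with the largest rise nearly vanished at 1 d and were abundant at 0 d and at 7 d. Neither could be named here. gene27786 had an FPKM of 756, 2110.2 and 2000.4 in replicates a, b and c at 0 d, 1.32, 0.903 and 0.767 after 1 d and 402, 2566 and 2572 after 7 d (log2 fold change 9.45, SE 0.60, adjusted p = 1.32e-05). Every 7 d library was far above every 1 d library, although replicate a was the lowest of the 7 d group. gene22820 went the same way, from 1.18, 0.563 and 0.369 at 1 d to 81, 433 and 466 at 7 d (log2 fold change 7.25, SE 0.72, adjusted p = 0.000359), and it had stood at 157, 352 and 336 at 0 d. At 3 d and 5 d both genes were between these extremes, gene27786 at 119, 191 and 224 and at 81.4, 57.3 and 62.8. For 7 d against 0 d neither was a DEG (adjusted p from limma = 0.929 and 0.961). Of the 74 DEGs, 11 carry a descriptive annotation in the tables of the paper and 21 a GO or KEGG term, with 30 in all carrying either. Those that can be named follow by what they do.

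Among the enzymes, peroxidase 4 (gene28590, LOC107405097) rose. It belongs to the secreted class III peroxidases, which use hydrogen peroxide and take part in lignin formation. Its FPKM was 18.1, 17.3 and 16.6 after 1 d and 77.1, 93 and 95.7 after 7 d, a 5.11-fold difference of the means (17.3 ± 0.751 against 88.6 ± 10.04, SD, n = 3; log2 fold change 2.28, SE 0.24, adjusted p = 0.000661). At 0 d it was 29.3, 26.7 and 23.8, so the 7 d level lay above that of untreated leaves as well (adjusted p = 0.000293 from limma). The rise was already there at 3 d, with 76.9, 86.7 and 93.4. A gene annotated as 1-aminocyclopropane-1-carboxylate (ACC) oxidase homolog 3 (gene14893, LOC107422939) stood at 8.47, 12.4 and 13.9 after 1 d and 43.6, 27.2 and 26.3 after 7 d (log2 fold change 1.40, SE 0.21, adjusted p = 0.00561). Its listed term is oxidation-reduction process, and its name does not show that it makes ethylene. All its 7 d values were above its 0 d values of 17.8, 25 and 22.2, but the difference from 0 d did not pass the test (adjusted p = 0.0707, limma).

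A pair of genes annotated as methanol O-anthraniloyltransferase, an enzyme known from grape that makes the volatile methyl anthranilate, rose at 7 d. gene22361 (LOC107431010) was at 0.677, 1.25 and 1.14 after 1 d and 11.1, 13.9 and 12.4 after 7 d (log2 fold change 2.74, SE 0.41, adjusted p = 0.00534), and it was low at 5 d as well, at 1.33, 1.21 and 0.684. gene22356 (LOC107431012) was at 0.230, 0.292 and 0.291 and 1.89, 4.13 and 4.75 (log2 fold change 1.79, SE 0.27, adjusted p = 0.0053). Both lay above every 0 d library at 7 d, but they share an annotation, and reads could have been split between them by the mapping. A gene annotated as the O-glucosyltransferase rumi homolog (gene10960, LOC107418584), a protein sugar transferase described in Drosophila, rose from 7.81, 8.31 and 7.31 to 14.1, 21.2 and 19.9 (log2 fold change 1.12, SE 0.14, adjusted p = 0.00224). Its 0 d values, 15.8, 16.7 and 17.1, fell inside the range of 7 d.

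In the chloroplast, TIC 55 (gene12111, LOC107419939) rose. It is an inner envelope protein that was found with the protein import machinery and that, in Arabidopsis, acts in chlorophyll breakdown. Its FPKM was 25.1, 19.3 and 19 after 1 d and 74.3, 53.6 and 52.3 after 7 d, which is 2.85-fold higher in the means (log2 fold change 1.46, SE 0.21, adjusted p = 0.00508). The 0 d libraries were at 63.4, 60.8 and 61.9, and 7 d against 0 d gave an adjusted p of 0.842 in limma, against 0.000197 for 1 d against 0 d. Its level thus dipped at 1 d and stood near that of untreated leaves at 7 d.

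Transcription factors moved in both directions. The Dof zinc finger protein DOF1.2 (gene13754, LOC107421684), of a family of DNA-binding proteins of plants and green algae, was near the detection limit at 1 d (1.45, 0.644 and 0.639) and at 10.6, 4.93 and 5.02 at 7 d (log2 fold change 1.99, SE 0.27, adjusted p = 0.00388). It was also low before heat (0.472, 0.348 and 0.275), after 3 d (1.48, 0.775 and 1.29) and after 5 d (0.542, 1.22 and 1.11), so its 7 d libraries stood above all others of the series. Ocs element-binding factor 1 (gene16832, LOC107424997), a bZIP protein known from maize, was low in every library, but its mean was higher at each later time point. Its values were 0.351, 0.345 and 0.354 before heat, 0.724, 1.17 and 1.46 after 1 d and 1.98, 2.63 and 2.98 after 3 d. They were 4.40, 5.99 and 5.87 after 5 d and 7.89, 5.19 and 5.89 after 7 d, which overlap (log2 fold change 1.79, SE 0.19, adjusted p = 0.000663 for 7 d against 1 d).

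Another gene annotated as a bZIP family transcription factor (gene11303, LOC107418952) had the largest fall among the DEGs on the log2(FPKM + 1) scale. It was at 2.76, 2.22 and 1.82 before heat, 95.2, 77.6 and 96.7 after 1 d and 5.91, 13.9 and 11.3 after 7 d (log2 fold change −3.06, SE 0.31, adjusted p = 0.000504). Its mean FPKM was 8.66-fold lower at 7 d than at 1 d. It had still stood at 32.3, 31.6 and 30.7 at 5 d, and at 7 d it remained above 0 d (adjusted p = 0.00134, limma). gene4377, listed for ubiquitin mediated proteolysis, the pathway that tags proteins for degradation, had the next largest fall on that scale. Its FPKM was 3.97, 7.65 and 7.26 before heat, 49.2, 78.4 and 98 after 1 d and 7.92, 9.31 and 10.9 after 7 d (log2 fold change −2.83, SE 0.28, adjusted p = 0.000359). Its course between was uneven, with 11.2, 16.94 and 16.1 at 3 d and 41, 62.5 and 61.3 at 5 d. With a constant of 0.1 in place of 1, which gives weakly expressed genes more weight, 8 of the 74 DEGs fell by more than gene11303 and 9 by more than gene4377, led by gene27201 and gene9320 with log2 fold changes of −5.57 and −5.45 against −3.18 for gene11303 and −2.95 for gene4377.

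The other named falls were of a MYB-related factor and a wall or lignan protein. gene12412 (LOC107420249) is annotated in Swiss-Prot as RADIALIS-like 2, a relative of the snapdragon MYB protein of flower asymmetry, but in NR as a DnaJ homolog, so its identity is uncertain. It fell from 5.18, 11 and 11.3 at 1 d to 0.537, 1.79 and 1.46 at 7 d (log2 fold change −2.14, SE 0.32, adjusted p = 0.0053), after 3.20, 1.77 and 2.12 at 0 d. Dirigent protein 4 (gene19174, LOC107427588), of a family that steers the coupling of phenolic radicals in lignan synthesis, fell from 32.5, 32.8 and 37.3 to 7.65, 9.41 and 10.6 (log2 fold change −1.79, SE 0.26, adjusted p = 0.00508). Its 7 d level was below each 0 d library (20.4, 13.5 and 15.6), though not at the threshold (adjusted p = 0.038, limma).

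**Figure D3:**
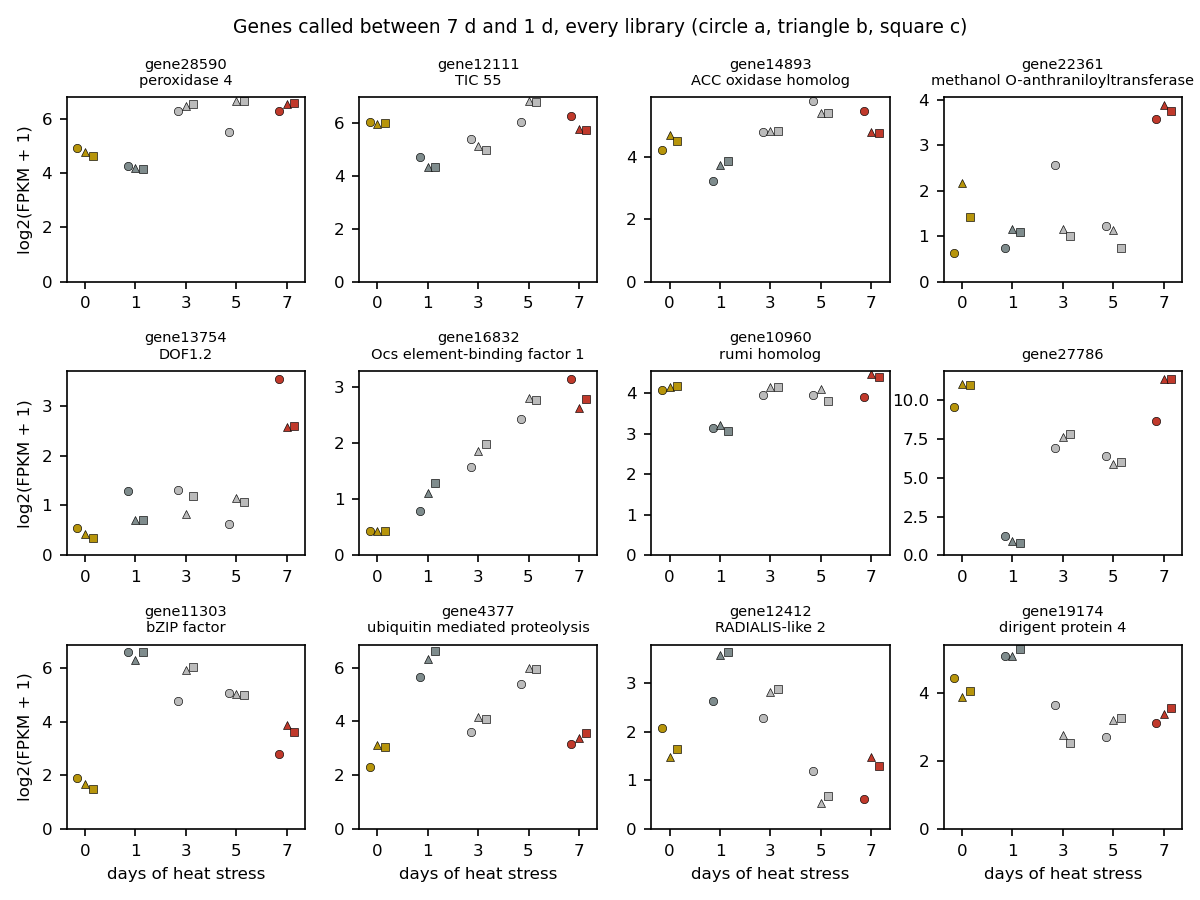
Log2(FPKM + 1) of 12 DEGs in every library (vertical axes from 0) against days of heat stress (0, 1, 3, 5 and 7), with circles, triangles and squares for replicates a, b and c, and 0 d, 1 d and 7 d in yellow, dark grey and red. In every panel the 3 red points lie all above or all below the 3 dark grey points, which the rule for choosing the genes required. DOF1.2 and the anthraniloyltransferase stand high at 7 d, and the bZIP gene at the lower left runs from 95.2 to 5.91 FPKM in replicate a between 1 d and 7 d.

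Further DEGs are known only by the GO or KEGG term under which the paper lists them. By the rule for gene lists these include gene6326, listed for protein processing in endoplasmic reticulum, spliceosome and endocytosis, at 33.8, 27.4 and 24.3 after 1 d and 99.2, 58.6 and 57.1 after 7 d (log2 fold change 1.27, SE 0.20, adjusted p = 0.00692). Its 3 d and 5 d values of 28.1, 25.9 and 20.4 and 22.6, 19.99 and 20.1 were as low as those of 1 d, while at 0 d it had been at 79.9, 94.7 and 93.6. gene19766, of phenylpropanoid biosynthesis, was up-regulated with 0.738, 0.997 and 1.03 after 1 d and 3.50, 5.48 and 4.32 after 7 d (log2 fold change 1.49). gene346, of the same pathway and of starch and sucrose metabolism, was down-regulated with 5.16, 7.57 and 9.41 and 1.32, 2.57 and 1.50 (log2 fold change −1.58). In plant-pathogen interaction, gene32746 rose from 0.788, 0.309 and 0.108 to 4.50, 4.86 and 4.43 and gene28366 from 1.25, 0.984 and 0.944 to 2.94, 3.16 and 3.67. gene23624, of response to water deprivation, rose from 0.625, 0.974 and 0.808 to 3.34, 7.24 and 7.70, with replicate a the lowest at 7 d.

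Others were chosen after their values were seen, for the size or the tightness of their change. gene16460, listed for inositol phosphate and for ascorbate metabolism, rose from 0.906, 1.22 and 1.21 to 26.5, 50.8 and 48.9, and at 5 d it had been at 3.61, 3.40 and 4.90. gene17216, also of inositol phosphate metabolism, had little spread, at 47.9, 53.8 and 51.7 before heat, 19.5, 18.8 and 19.4 after 1 d and 43.2, 44.8 and 44.2 after 7 d (log2 fold change 1.16, SE 0.10, adjusted p = 0.000227). gene5830, of fatty acid elongation, fell from 16.1, 18.6 and 20.8 to 1.96, 1.67 and 1.93 (log2 fold change −2.77, SE 0.21, adjusted p = 4.73e-05) and stood near its 0 d values of 1.99, 4.78 and 3.97. Its course between was uneven, with 2.09, 2.51 and 3.05 at 3 d and 12.9, 11.2 and 13.5 at 5 d. gene608, listed for cell wall organization and response to hypoxia, fell from 76, 101 and 71.6 to 16.8, 15.1 and 14.1 and was below all 0 d libraries (100.4, 63.2 and 65.8). gene9320, which could not be named here, was at 6.39, 7.47 and 6.27 before heat, 3.61, 5.15 and 5.05 after 1 d and 3.42, 5.05 and 5.07 after 5 d. At 7 d it was listed at 0, 0.0192 and 0. Only in the 7 d libraries among the 15 was it near 0.

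Many calls were lost when 1 library was left out, the fewest without replicate a at 7 d. Of the 74 DEGs, 42, 17 and 18 remained without replicates a, b and c at 1 d, and 66, 23 and 18 without those of 7 d. In each fit without a 7 d library 72 of the 74 were tested, since gene23328 and gene27580 no longer passed the filter there. Of all 74, 16 were DEGs in all 6 of these fits. With each of the 6 libraries left out in turn, gene27786, gene22820, peroxidase 4, Ocs element-binding factor 1, the bZIP gene gene11303, gene4377, gene16460, gene17216, gene5830 and gene9320 were DEGs every time, with a highest limma adjusted p of 0.00653. TIC 55, called in 2 of the 6 fits, reached an adjusted p of 0.0304 without replicate c at 1 d, where its log2 fold change was 1.39. For DOF1.2 and the ACC oxidase homolog the highest adjusted p was 0.0265 and 0.0280, both without replicate b at 1 d, and they were called in 3 and 1 of the fits. The highest values without replicate c at 1 d were 0.0304 for either anthraniloyltransferase gene, 0.0173 for the rumi homolog, 0.0352 for gene12412 and 0.0304 for dirigent protein 4, each called in 1 or 2 of the fits. The genes known by their terms, gene6326, gene19766, gene346, gene32746, gene28366, gene23624 and gene608, were likewise called in 1 or 2, with highest adjusted p of 0.0441, 0.0301, 0.0586, 0.0224, 0.0441, 0.0258 and 0.0371. No change turned its direction in any of these fits. Without replicate a at 7 d, of all the DEGs named in the text gene346 was the exception that lost its call (adjusted p = 0.0116).

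The heat shock genes were the clearest case of disagreement between the 7 d libraries. Of 30 heat shock protein, chaperone and HSF genes tested, 0 were DEGs between 7 d and 1 d (adjusted p from 0.0803 to 0.959, limma), against the 0.371% of all genes. These counts leave out gene12412, which had been listed with the chaperones for its DnaJ name in NR and which is a DEG that fell. It was taken out, for its other name, after its values were seen. In 1 d against 0 d, 14 of the 23 HSP and chaperone genes were higher (4.49% of all genes) and 0 lower, and in 7 d against 0 d 13 were higher (4.14% of all genes) and 0 lower. These genes were drawn from those that the study printed as changed or measured by qRT-PCR, partly from these samples. Their direction against 0 d is therefore no independent evidence. The levels of single 7 d libraries nevertheless differed from those of 1 d. In 13 of the 23 genes, replicate a at 7 d lay above every 1 d library while replicates b and c at 7 d both lay below every one. The same held in 631 of all 19925 tested genes (3.17%). Summed over the 23 genes, FPKM was 1271, 916 and 876 in replicates a, b and c after 1 d and 2147, 675 and 646 after 7 d. Before heat the sums were 199, 198 and 192, and after 5 d they were 1576, 1535 and 1450.2. Replicate a at 7 d thus had the highest sum of the series, and b and c lay between 0 d and 1 d.

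The small HSPs showed wide gaps between the 7 d libraries. The chloroplastic small HSP gene19985 (LOC107428481) was at 164, 114 and 111 after 1 d and 355, 33.1 and 29 after 7 d, with 31, 20.4 and 19.4 at 0 d. In replicate a it was 11.5-fold above the mean of b and c. The class IV small HSP (gene16134, LOC107424261) was at 71.3, 50.8 and 42 after 1 d and 293, 31.7 and 30.7 after 7 d. The class II small HSP (gene12300, LOC107420159) was at 106, 72.9 and 81.5 and 242, 40.8 and 34.3. These proteins act outside the chloroplast, and their libraries stood in the same order as those of gene19985. A second chloroplastic small HSP (gene28274, LOC107404752) was at 38, 19.6 and 22.2 and 138, 15.5 and 16.8, and a small HSP named as class I in the primer list of the study (gene6564, LOC107413804) at 33.8, 31.3 and 31.1 and 69.2, 18.7 and 17.9. The class V small HSP (gene1248, LOC107419886) had the opposite order, with 67.3, 83 and 81.5 before heat, 45.7, 67.8 and 64.4 after 1 d and 19.6, 52.3 and 50.1 after 7 d. For it, replicate a was the lowest of the 7 d libraries.

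The larger chaperones followed the same order. HSP83 (gene21597, LOC107430166), of the HSP90 family, was at 0.621, 0.387 and 0.349 before heat, 76.5, 54.3 and 45.2 after 1 d and 271, 34 and 31 after 7 d. An HSP70 gene (gene2891, LOC107406481) was at 26.6, 16.5 and 15 after 1 d and 124, 10.4 and 10.1 after 7 d, and heat shock 70 kDa protein 8 (gene15133, LOC107423197) at 27.8, 23.1 and 23.5 and 68.8, 16.5 and 16.6. In both, the 1 d libraries lay between replicate a and the other libraries of 7 d. The disaggregase ClpB1 (gene11408, LOC107419106) was at 45.6, 27.4 and 26.9 and 66, 17.8 and 16.88, and the mitochondrial ClpB4 (gene12505, LOC107420312) at 17.9, 16.1 and 17.1 and 24.5, 11.7 and 10.5. Chaperone protein dnaJ 3 (gene1686, LOC107425032), a partner of HSP70, reached 93.8, 12.6 and 7.88 at 7 d from 18.4, 20.2 and 9.76 at 1 d. The largest gap of all was that of BAG family molecular chaperone regulator 5 (gene10104, LOC107417637), a mitochondrial regulator of HSP70, at 22.2, 0.737 and 1.13 at 7 d and 2.16, 3.27 and 3.43 at 1 d.

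Some chaperone genes did not follow this order. BAG family molecular chaperone regulator 6 (gene15604, LOC107423735), the most abundant of the 23 genes over the 6 libraries, was at 5.61, 4.57 and 4.86 before heat, 298, 219 and 205 after 1 d and 181, 261 and 258 after 7 d, so that replicate a was the lowest at 7 d. The chloroplastic dnaJ 11 (gene19164, LOC107427541) was below 1 d in all 3 libraries of 7 d (192, 115 and 126 against 40.1, 65.1 and 65.5) and had the lowest adjusted p of these genes, 0.0803 in limma. Chaperone protein dnaJ 10 (gene15341, LOC107423466) differed little, at 1.28, 1.06 and 1.05 and 1.11, 0.985 and 1.11.

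**Figure D4:**
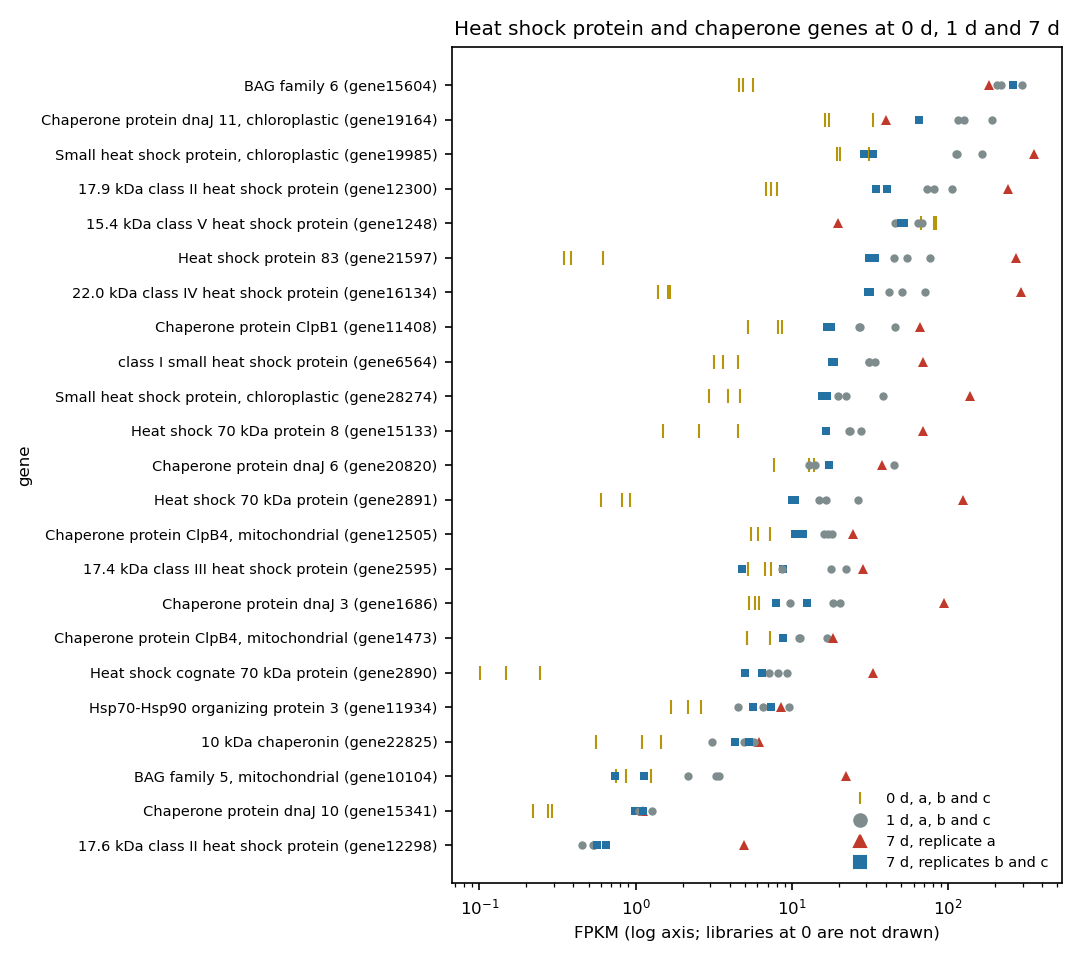
FPKM on a log axis of 23 heat shock protein and chaperone genes (rows, ordered by their mean at 1 d) in each library of 0 d (yellow ticks), 1 d (grey circles) and 7 d (red triangle for replicate a, blue squares for b and c). In 13 of the 23 rows the red triangle lies to the right of all grey circles and both blue squares to their left.

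This spread was widest at 7 d. Over the 23 genes, the median ratio of replicate a to the mean of b and c was 4.16 at 7 d, 1.41 at 1 d and 1.00, 0.891 and 0.970 at 0, 3 and 5 d. Over all tested genes that ratio, taken on FPKM + 1, had a median between 0.907 and 0.978 at the 5 time points. Without replicate a, the 7 d group is b and c alone, which were closely alike. In that fit of 7 d against 1 d, 0.428% of all genes fell and 1.47% rose, while 2 of the 23 genes fell and 0 rose. These were gene19985 (log2 fold change −2.01, adjusted p = 0.000337 from limma) and gene12300 (log2 fold change −1.17, adjusted p = 0.000573). The peptidyl-prolyl isomerase FKBP65 (gene13986, LOC107421930), a folding enzyme noticed after its values were seen, fell in that fit as well and stood at 52.3, 60.3 and 61.2 after 1 d and 129, 18.8 and 18.5 after 7 d.

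The HSFs, which control these genes, moved less but in the same order in several cases. Of 7 HSF genes tested none was a DEG, with replicate a at 7 d (0.371% of all genes) or without it (1.9%). HSFB members included gene21394 (LOC107429964) at 13.6, 11.5 and 12.5 after 1 d and 23.8, 8.999 and 7.64 after 7 d, and gene7123 (LOC107414457) at 14.6, 12.1 and 12.8 and 40.1, 14.1 and 11.6. Factors of class B lack the activation region of class A. An HSF30 gene of class A (gene12331, LOC107420051) was at 20.9, 19.3 and 20.9 and 32.9, 11.8 and 10.8. In these 3 genes replicate a at 7 d was the highest of the 6 libraries. The class C factor gene23144 (LOC107431837) was at 37.9, 53.2 and 53.4 and 51.1, 34 and 31.1, with groups that overlapped. HSF24 (gene16607, LOC107424801), at 29, 18.3 and 18.2 and 12, 23.4 and 25.6, was instead lowest in replicate a.

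The wider lists of heat and protein folding genes split in the same way. These lists are genes that the study printed as changed at 1, 3 or 5 d in its cultivars, partly from these samples, so their direction against 0 d is no independent evidence. For each 7 d library, the median over a list of its log2 difference from the mean of the 3 libraries of 1 d was taken. For response to heat (40 genes tested) it was 0.54 in replicate a, −0.07 in b and −0.25 in c, and for protein folding (48 genes) it was 0.53, −0.22 and −0.31. Over all tested genes the same medians were −0.09, 0.06 and 0.04. None of the genes in either list was a DEG, against 0.371% of all genes. For protein processing in endoplasmic reticulum (66 genes) the medians were 0.60, −0.23 and −0.32, and 1 gene, gene6326, was a DEG. Without replicate a at 7 d, 1 gene of this list rose and 3 fell, where 1.47% and 0.428% of all genes did, and among those that fell was gene3909 at 412, 212 and 218 after 1 d and 310.1, 84.2 and 75.8 after 7 d.

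Some WRKY genes showed the opposite split, which was noticed after the values were seen. WRKY factors are plant regulators best known from defence. Of 6 tested, 0 were DEGs (0.371% of all genes). Without replicate a at 7 d, 3 rose, where 1.47% of all genes rose, and that fit rests at 7 d on b and c alone. WRKY33 (gene22590, LOC107431286), a regulator of defence against fungi in Arabidopsis, was at 13.2, 7.52 and 9.44 after 1 d and 4.11, 37 and 39.1 after 7 d. Replicate a was the lowest and replicates b and c the highest of the 6 libraries. WRKY40 (gene30566, LOC107407232) was at 0.835, 0.354 and 0.627 and 0.170, 4.11 and 6.37, and WRKY75 (gene19859, LOC107428282), tied to leaf senescence in Arabidopsis, at 8.51, 5.99 and 6.62 and 7.55, 17.3 and 18.7. These 3 are the members that rose in that fit. The most abundant WRKY gene, WRKY11 (gene30007, LOC107406622), went the other way, at 17.3, 15.9 and 16.1 and 27.8, 21.2 and 18.8, with replicate a the highest. Replicate a lay above the mean of 1 d in 3 of the 6 genes, replicate b in 6 and replicate c in 5. TIFY 9 (gene26208, LOC107435244), of the family that represses jasmonate signaling, stood at 0.815, 1.72 and 1.35 and 1.05, 5.54 and 4.35.

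**Figure D5:**
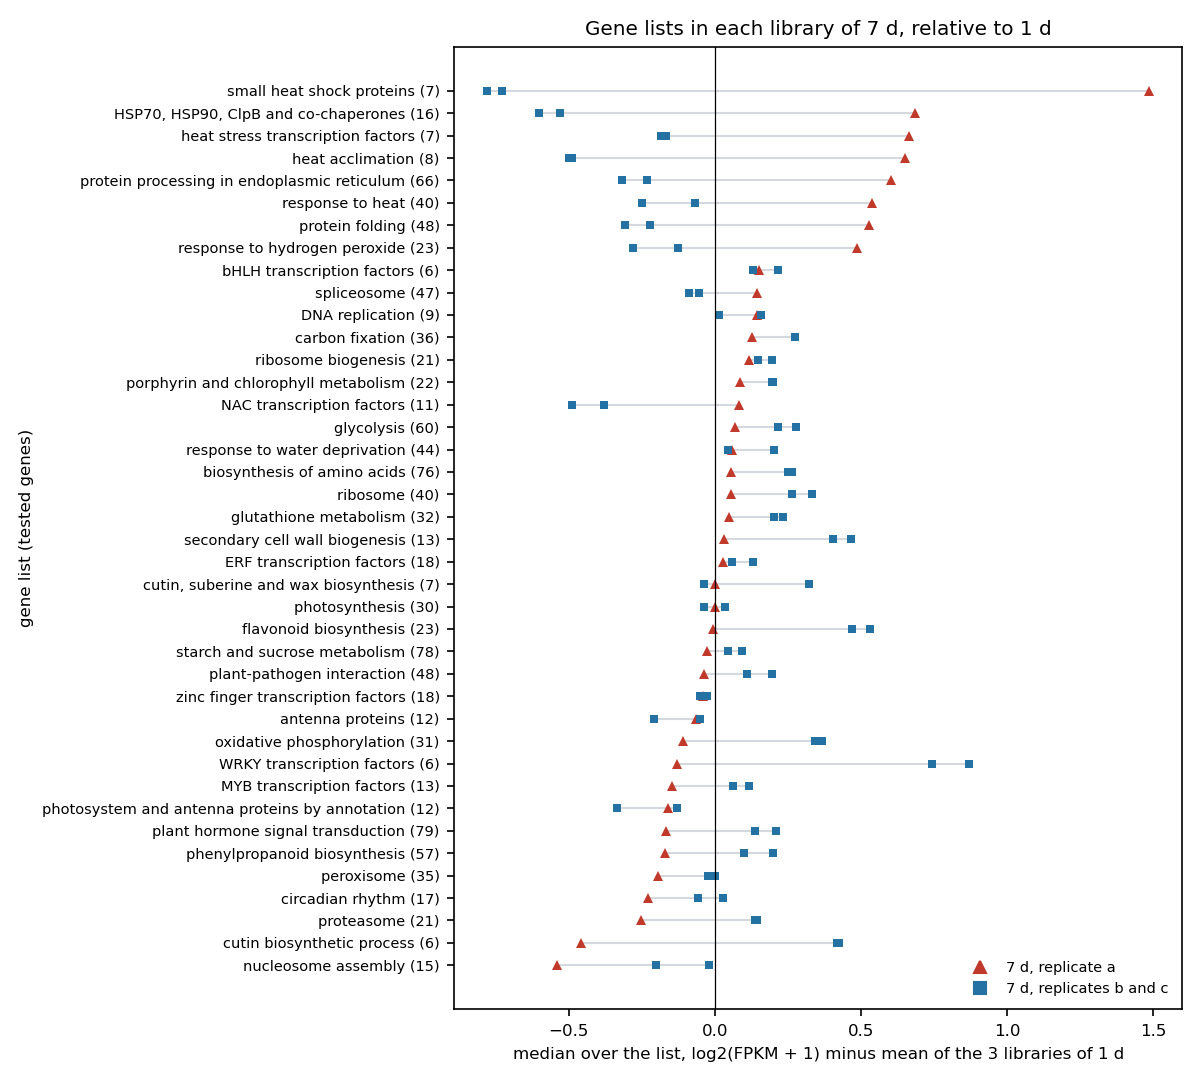
Median over each of 40 gene lists (rows, tested genes in parentheses) of log2(FPKM + 1) in a 7 d library minus the mean of the 3 libraries of 1 d (horizontal axis), for replicate a (red triangle) and replicates b and c (blue squares). Replicate a reaches 1.49 for the small HSPs, where b and c lie at −0.73 and −0.78, and it lies at −0.13 for the WRKY genes, where b and c lie at 0.87 and 0.74.

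The genes of carbon fixation, amino acid synthesis and glycolysis gave 0 DEGs between 7 d and 1 d, near the 0.371% of all genes. Many of these genes were lower at 1 d than at 0 d. They too were listed from genes that the study printed as changed, so their fall against 0 d is no independent evidence. Where that choice rested on the 1 d libraries, it also favours 7 d values above those of 1 d. For carbon fixation, the Calvin cycle and related steps, 18 of 36 genes were lower at 1 d against 0 d and 13 of 36 at 7 d against 0 d, where 5.68% and 4.88% of all genes were. None was higher in either, and none was a DEG between 7 d and 1 d. The list's summed FPKM was 15236 to 16402 over the 0 d libraries, 6096 to 6517 over those of 1 d and 7255 to 9463 over those of 7 d. The 7 d sums were thus all above the 1 d sums and all below the 0 d sums. Its median log2 fold change of 7 d against 1 d was 0.20, and that of all tested genes 0.00. In 9 of the 36 genes all 7 d libraries lay above all those of 1 d and in 2 below, where 11.2% and 12.1% of all genes did so. For biosynthesis of amino acids, 24 of 76 genes were lower at 1 d and 17 at 7 d against 0 d, with 3 and 6 higher (5.68% and 4.88% of all genes lower, 4.49% and 4.14% higher). None was a DEG between 7 d and 1 d, and 16 lay above and 2 below without overlap. For glycolysis, 16 of 60 were lower at 1 d and 12 at 7 d against 0 d, and 2 and 1 were higher, to be read against the same shares. Their sums were 11534 to 12449 at 0 d, 4806 to 5647 at 1 d and 5841 to 7852 at 7 d. The lists share members, so these are not separate results.

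In flavonoid biosynthesis, which makes pigments and sun-screening phenolics, 13 of 23 genes were lower at 1 d against 0 d and 8 at 7 d against 0 d (5.68% and 4.88% of all genes), and 1 was higher in each (4.49% and 4.14%). This list and those that follow were likewise drawn from genes that the study printed as changed, so these shares are no independent evidence. The summed FPKM was 668 to 774 at 0 d, 179.5 to 232 at 1 d and 221 to 303 at 7 d, with the ranges of 1 d and 7 d overlapping. Ribosomal protein genes (40 tested) gave no DEG between 7 d and 1 d (0.371% of all genes). Of them, 11 had all 7 d libraries above all 1 d libraries and 0 had them below (11.2% and 12.1% of all genes). Against 0 d, 1 was higher and 8 lower at 1 d, and 6 were higher and 6 lower at 7 d, with median log2 fold changes of −0.06 and 0.10. Their sums were 2292 to 2339.8 at 1 d and 2413 to 2807 at 7 d, with 3296 to 3604 at 0 d. Phenylpropanoid biosynthesis, the route to lignin, had 2 up-regulated DEGs, peroxidase 4 and gene19766, and 1 down-regulated, gene346, among 57 genes (0.221% and 0.151% of all genes). Its most abundant member, peroxidase 42 (gene1232, LOC107420772), was at 620.1, 714 and 663 and 534, 413 and 434, below 1 d in every 7 d library but not a DEG (adjusted p = 0.21, limma).

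Light harvesting gave 0 DEGs between the time points, and 0.371% of all genes were DEGs. In lists this short, 0 is near that share. No gene of photosynthesis (30 tested) or antenna proteins (12 tested) was a DEG, and the median log2 fold changes were 0.01 and −0.14. The most abundant antenna gene, gene609, was at 5049, 6265 and 6035 after 1 d and 6957, 12465 and 11352.5 after 7 d. Its adjusted p was 0.488 in limma. It is part of the antenna sums given above, so those sums do not show the course of the other members. Of the 12 antenna genes, 3 lay below 1 d and 2 above it without overlap, where 12.1% and 11.2% of all genes did so. A further list, of 12 genes annotated as photosystem or antenna proteins, had lower sums at 7 d, of 28929 to 32796 at 1 d and 23038 to 28596 at 7 d, which do not overlap. In 5 of the 12 all 7 d libraries lay below all those of 1 d and in 0 above, where 12.1% and 11.2% of all genes did so. This list was drawn from genes that the study printed as changed, partly from these samples, and 5 of the 12 were higher at 1 d against 0 d. Such a choice favours 7 d values below those of 1 d, so these shares are no independent evidence of a fall. The median difference from 1 d was −0.16, −0.13 and −0.33 in replicates a, b and c on the log2(FPKM + 1) scale. Before heat the sums were 12111 to 17570.5. The most abundant photosynthesis gene, photosystem II 10 kDa polypeptide (gene15246, LOC107423325), was at 7302, 6949 and 7123 after 1 d and 7096, 4162 and 3973 after 7 d. Replicate a stayed in the range of 1 d and replicates b and c lay below it. Protochlorophyllide reductase (gene23665, LOC107432449), a light-driven step of chlorophyll synthesis, was at 2745, 1731 and 1744 and 1549, 1568 and 1486 (adjusted p = 0.323, limma). The A20 and AN1 zinc finger protein gene10053 (LOC107417576), of a family of stress-associated proteins and the most abundant member of its list, was at 213, 186 and 188 before heat, 1093, 1044 and 1027 after 1 d and 1318, 1242 and 1342 after 7 d. It was up at 1 d and no lower at 7 d in any library, with an adjusted p of 0.251 between 7 d and 1 d. Over all lists, 963 different genes were tested, of which 6 rose and 2 fell between 1 d and 7 d (gene12412 among them), against 0.221% and 0.151% of all genes.

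Markers of other leaf tissues and states were given beside these results. Secondary cell wall genes (13 tested) had 0 DEGs between 7 d and 1 d, near the 0.371% of all genes. Their sums were 44.9 to 47.4 at 1 d and 31.1 to 56.8 at 7 d. Cutin genes (6 tested), which mark the epidermis, summed to 20.5 to 22.9 and 14.6 to 53.9, the lowest 7 d sum being that of replicate a. The other epidermis list, cutin, suberine and wax biosynthesis (7 tested), did not show such high sums in b and c. It summed to 16.1 to 20.3 at 1 d and to 11.2, 17.3 and 21.2 in replicates a, b and c at 7 d. Histone genes of nucleosome assembly (15 tested), which are high in dividing cells, summed to 1709 to 1916 at 1 d and 1106 to 1586 at 7 d, all 7 d sums being lower, with 0 DEGs. DNA replication genes (9 tested), also taken for dividing cells, did not share this fall. They summed to 79.8 to 91.4 at 1 d and 79.7 to 86.2 at 7 d, with a median log2 fold change of 0.27 and 0 DEGs. Leaf senescence genes (4 tested) summed to 78.2 to 93.2 and 60.8 to 79.3. The part that a shift in tissue composition had in the results was not tested.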

How the data were processed

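Leaf RNA of 'HS' was sequenced by the authors, who per the paper used Bowtie 2 and TopHat 2 for mapping and Cufflinks for assembly, and the deposited table gives FPKM per gene and library. The submitters' processing notes name Trimmomatic 0.36 and FastQC, and the genome build is not given in the sources used here. The labels speak of replicates extracted separately and then pooled, and they name another kit than the paper, which has no 7 d samples. So p-values measure the spread between these libraries, which may be technical. The authors name edgeR, but with no counts in the table limma 3.58.1 in R 4.3.3 was used on log2(FPKM + 1), for the 19925 genes that reached an FPKM of 1 in 3 libraries among the 15 (lmFit on time point, eBayes with an intensity trend, 10 residual degrees of freedom). The step was tested on simulated data. Python 3.11.15, pandas 2.3.3 and matplotlib 3.10.9 did the rest.

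IDs were paired with LOC names, descriptions and terms through the tables of the paper (1241 genes), and 6 of the 9 qRT-PCR genes could be paired. Some entries of the term lists are shortened there. Members and lists were chosen with earlier results of these data known. Named genes are, among DEGs whose groups do not overlap, the 2 largest rises and falls, the 12 largest rises and falls with a description, up to 3 DEGs and the most abundant gene of each of 41 lists, the qRT-PCR genes, and all paired HSP and HSF genes. Those given are the ones that the results turn on. gene12412, the DEG among the genes listed as chaperones, was left out of the HSP and chaperone counts and gene6564 added to them after the values were seen. The alternatives tried were another added constant, no filter, other scalings, other fits and thresholds, and fewer libraries.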

Additional observations from a re-analysis of the deposited data

How the results depend on the processing

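Without 1 library of the pair of time points in turn, DEGs between 7 d and 1 d ranged from 18 to 377, and without all libraries of 1 letter from 0 to 1139 (1139 without replicate a, 0 without b and 0 without c). The fit without replicate a keeps only b and c at each time point, which were closely alike. In the 2 fits with 0 DEGs, limma still gave 548 and 534 genes that changed by 2-fold or more at an unadjusted p up to 0.05, and the cause was not tested. For 1 d against 0 d the leave-out counts ranged from 60 to 2799, and for 7 d against 0 d from 24 to 2366, lowest without replicate b and c respectively. Fitting only the libraries of the 2 time points, which leaves fewer libraries for the variance, gave 36 DEGs for 7 d against 1 d and 1114 for 7 d against 0 d. An adjusted p of 0.05 gave 222 for 7 d against 1 d. Dropping the minimum fold change gave 4092 for 1 d against 0 d and 3796 for 7 d against 0 d. With the other settings the count for 7 d against 1 d stayed within 1.5-fold of 74, from 53 without a filter to 104 with replicate a against b and c as a term. None of the 74 DEGs turned its direction in any fit.

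Whether the letters pair the libraries was checked by correlating deviations from the group means. For a, b and c between 1 d and 7 d this gave −0.06, −0.05 and −0.03, between 0 d and 1 d 0.02, −0.02 and 0.02, and between 0 d and 7 d 0.12, 0.09 and 0.09. In no pair of time points were all 3 above 0.1, so the libraries were taken to share only a letter, although between 0 d and 7 d every library correlated best with its own letter. With the replicate block, 58 genes were DEGs for 7 d against 1 d, 1986 for 1 d against 0 d and 1764 for 7 d against 0 d. The list medians moved by less than the spread of the 7 d libraries in 41 of 41 lists under median-of-ratios scaling and in 38 of 41 after quantile normalization. Replicate a widens that spread in many lists, so this comparison cannot show that smaller shifts are stable. Without counts, no interval for counting error could be given, and genes of low FPKM are the least certain.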
